A study of Mus musculus with 3 samples.

Results

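The genes described here are the 10 that encode the NF-E2, NRF, BACH and small MAF transcription factors and their inhibitor KEAP1, namely Nfe2, Nfe2l1, Nfe2l2, Nfe2l3, Bach1, Bach2, Mafk, Mafg, Maff and Keap1. They were taken by name from 21851 protein-coding genes of the GENCODE M21 basic annotation, and all 10 were found. Open chromatin was mapped by DNase-seq, which sequences the ends left where the nuclease DNase I cuts accessible DNA, in MEL cells. MEL is an immortalized mouse erythroleukemia line, widely used as a model of early red cell precursors, and the labels name no treatment and no second condition. The 3 libraries belonged to 2 biological replicates, of which replicate 1 had 2 libraries whose alignments the authors merged and replicate 2 had 1 library. Each replicate therefore had 1 list of peaks, no spread between samples could be computed, and no test between samples was possible.

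The p45 subunit of NF-E2 (Nfe2) and the related factors NRF1 (Nfe2l1), NRF2 (Nfe2l2) and NRF3 (Nfe2l3) are cap'n'collar basic leucine zipper proteins, which bind DNA as partners of a small MAF protein (MafK, MafG or MafF) at sites of the NF-E2 and antioxidant response type. NF-E2 is known from red cell and megakaryocyte precursors, where it binds the beta-globin locus control region. BACH1 and BACH2 pair with the same small MAF proteins on the same kind of site and repress, BACH1 in a way that heme relieves, and KEAP1 holds NRF2 in the cytoplasm and sends it for degradation until oxidants or electrophiles release it.

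Every deposited peak carried a score between 1 and 150, a whole number set by the authors, and the sources used here do not say what it counts. It served only to describe and rank peaks within a list. There were 281600 peaks in replicate 1 (median score 73) and 89046 in replicate 2 (median score 32), so the pairs of scores below are not a comparison of accessibility between replicates. The number of reads behind either list is unknown. Of 10 red cell markers, 9 in replicate 1 and 6 in replicate 2 had a promoter peak, beside 58.3% and 49.4% of all protein-coding genes, and the band 3 gene Slc4a1 had none in either list. Promoter peaks were present at 4 of 4 granulocyte and macrophage markers and at 3 of 4 megakaryocyte markers in both lists. For B and T cell markers the count was 1 of 4 in replicate 1 and 0 of 4 in replicate 2, and for other tissues it was 2 of 4 in both. Gata1, Klf1, Tal1 and Epor were among the 6 with one in both lists, while Alas2, Hbb-bs and Hba-a1 had none in replicate 2. These counts do not single out a red cell identity, and the cells are called MEL by their label.

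All 10 genes had a peak centred within 1000 bp of a protein-coding start in both lists. The same was true of 58.3% of all protein-coding genes in replicate 1 and of 49.4% in replicate 2. Their scores were not high for open promoters. The median over the 10 genes of the highest promoter score was 137 in replicate 1, against 139 over all genes with a promoter peak, and 56.5 in replicate 2, against 63. In the replicate 2 list the order ran from Nfe2l1 (score 107) and Nfe2l2 (88) through Mafk and Mafg (63 each), Bach1 (61), Nfe2 (52), Maff (46), Bach2 (38) and Keap1 (37) to Nfe2l3 (20). Replicate 1 kept the ends of that order, with Nfe2l1 highest at 150 and Nfe2l3 lowest at 106. In between, Bach1 stood level with Nfe2l2 at 149, Nfe2 and Mafg scored 138, Maff and Keap1 136, Mafk 135 and Bach2 117. With 1 list per replicate, it cannot be said which neighbours in either order differ beyond the spread of samples.

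**Figure D1:**
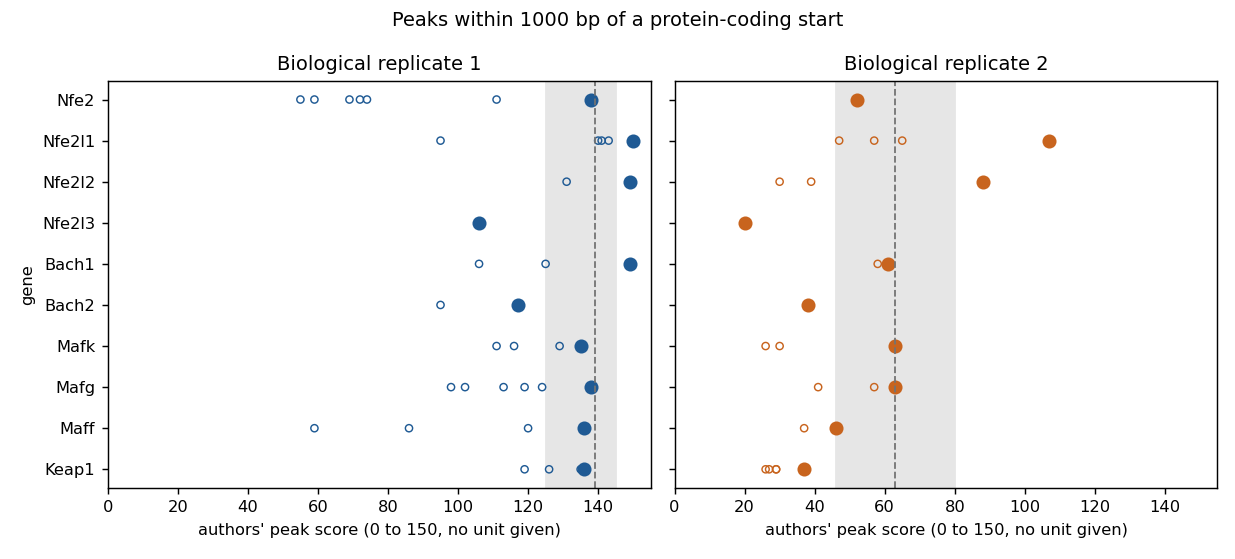
Scores of all peaks within 1000 bp of a protein-coding start of each gene, in replicate 1 (left, blue) and replicate 2 (right, orange); filled points mark the highest score, open points the other peaks, the grey band spans the quartiles and the dashed line the median over all genes with a promoter peak. Nfe2l1 lies above the band in both lists (150 and 107) and Nfe2l3 below it in both (106 and 20).

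Nfe2, on the reverse strand at chr15:103248212-103258403 (GRCm38, the build of the mm10 files), encodes the p45 subunit itself. At the starts of the basic annotation its best peak scored 138 in replicate 1, close to the median of 139 over open promoters. In replicate 2 it scored 52, below the median of 63. The highest peak of the gene was elsewhere. It scored 150 in replicate 1, at chr15:103258416-103258565, and 83 in replicate 2, at chr15:103258456-103258605. These peaks were centred 88 and 128 bp upstream of the 5′ end of the gene, and 3052 and 3092 bp from the nearest start of the basic set. Among replicate 1 peaks over 1000 bp from any basic protein-coding start, 99.9% scored lower, and 97.0% did so in replicate 2. That 5′ end, at position 103258403, is a protein-coding start in the full GENCODE M21 annotation but not in its basic set. With the starts of the full set, an alternative chosen after seeing the data, the promoter scores of Nfe2 became 150 and 83 and the median of the 10 genes in replicate 2 became 62. In replicate 1 the inner starts lay in a hotspot, the wider enriched region that the authors also deposited, of 5825 bp, wider than at 99.1% of genes with a promoter hotspot. In replicate 2 the hotspot there was 179 bp wide, and only 5.1% of genes had a narrower one.

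The sequences of both Nfe2 sites are shown because they hold GATA and KLF matches. Capitals mark matches to the GATA motif (AGATAA or AGATAG or TGATAA or TGATAG) and to the KLF motif (CCNCNCCC), searched on both strands, here and, together with the NF-E2 type motifs given later, in every sequence below. All peak sequences are the plus strand of GRCm38 over the 150 bp of the replicate 2 peak. The promoter peak lies at chr15:103251696-103251845.
Nfe2 upstream peak: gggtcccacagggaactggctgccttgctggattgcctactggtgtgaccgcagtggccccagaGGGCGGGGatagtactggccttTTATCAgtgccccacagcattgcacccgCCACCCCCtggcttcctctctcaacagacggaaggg
Nfe2 promoter peak: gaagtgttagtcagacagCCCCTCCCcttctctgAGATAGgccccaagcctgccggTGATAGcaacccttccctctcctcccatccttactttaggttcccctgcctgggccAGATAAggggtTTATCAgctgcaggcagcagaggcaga
The upstream peak held 1 GATA and 2 KLF matches, and the peak at the inner starts held 4 GATA matches and 1 KLF match. Neither held a match of the NF-E2 type. A GATA match was present in 33.4% of all replicate 2 peaks and a KLF match in 24.1%.

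**Figure D2:**
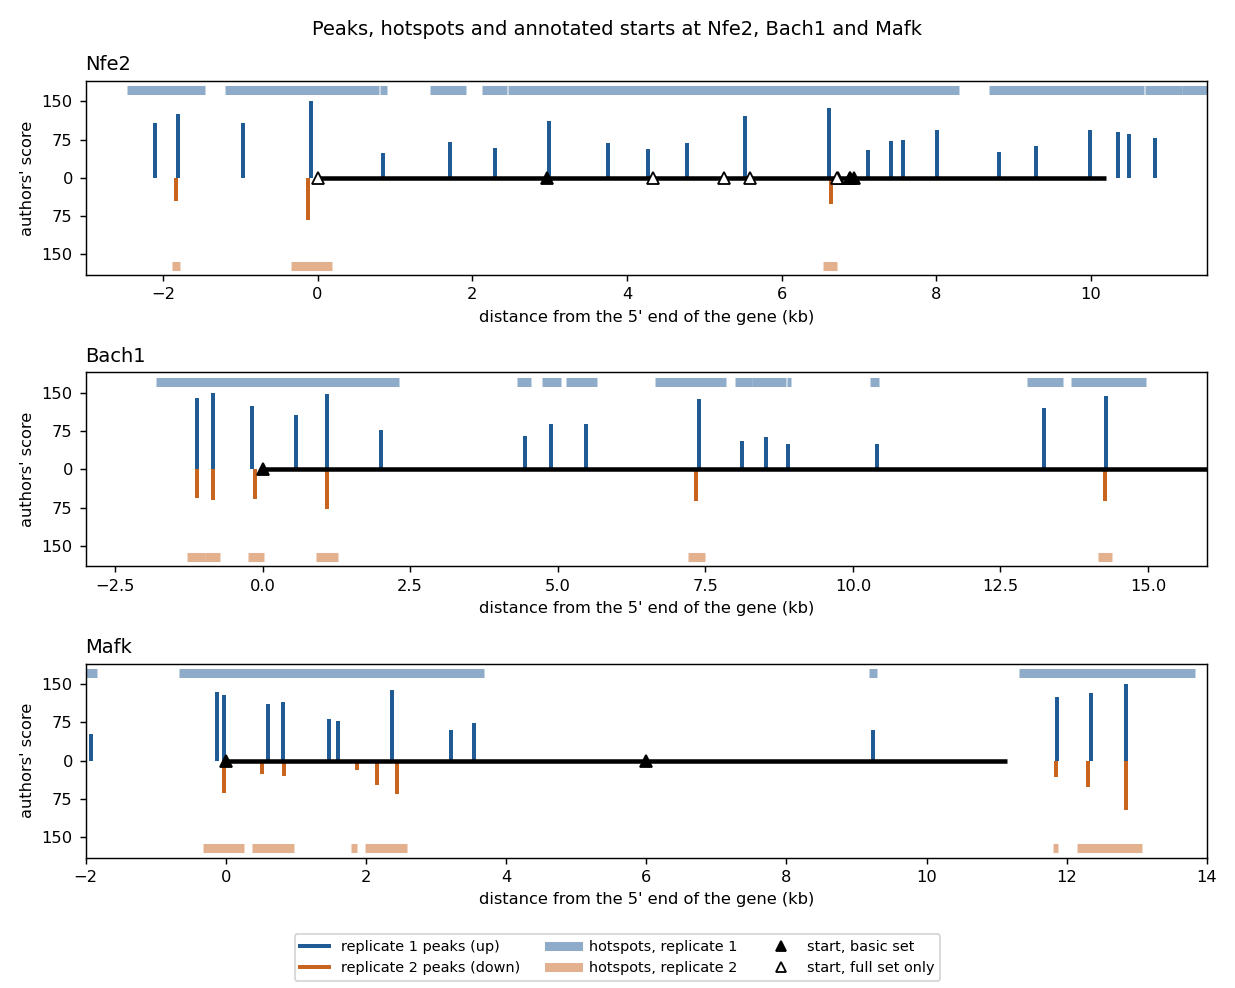
Peaks (vertical lines, height is the authors' score, replicate 1 up and replicate 2 down), hotspots (pale bars) and annotated protein-coding starts (triangles, open where only the full annotation has them) at Nfe2, Bach1 and Mafk, by distance in kb from the 5′ end of the gene (black bar). The highest peaks stand at the 5′ end of Nfe2 (150 and 83), on both sides of the Bach1 start and past the end of Mafk (150 and 96).

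Nfe2l1 (chr11:96817414-96829968, reverse strand) encodes NRF1, which is held in the endoplasmic reticulum and activates proteasome genes when the proteasome is impaired. Its promoter had the highest score of the 10 genes in both lists, 150 in replicate 1 and 107 in replicate 2. Of genes with a promoter peak, 96.9% scored lower in replicate 1 and 97.3% in replicate 2. The peak was centred 123 bp upstream of the outermost start in replicate 1 and 143 bp upstream in replicate 2. A peak at the inner start at position 96824127 scored 140 and 65. Between these, the starts at positions 96827719 and 96827955 had no peak centred within 250 bp in either list. The best peaks over 1000 bp from any start lay 32203 and 33883 bp upstream. They scored 45 and 44 in replicate 2, above 74.8% and 73.5% of peaks away from promoters. In replicate 1 the same sites scored 126 and 144, above 89.7% and 98.0% of such peaks. The sequence of the top promoter peak, at chr11:96830036-96830185, held 1 KLF match and no match of the GATA or NF-E2 type.
Nfe2l1 promoter peak: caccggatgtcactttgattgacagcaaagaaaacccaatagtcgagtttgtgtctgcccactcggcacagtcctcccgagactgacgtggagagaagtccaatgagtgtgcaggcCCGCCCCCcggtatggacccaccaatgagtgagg

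Nfe2l2 (chr2:75675513-75704641, reverse strand) encodes NRF2, the main activator of antioxidant genes, and has 1 protein-coding start. Its promoter peaks reached 149 in replicate 1 and 88 in replicate 2, above 92.6% and 84.1% of genes with a promoter peak. The hotspot over this start was 4019 bp wide in replicate 1 and 2346 bp wide in replicate 2, where 99.7% of genes with a promoter hotspot had a narrower one. An intronic peak, 1110 bp inside the gene in replicate 1 and 1130 bp in replicate 2, scored 143 and 65 and was the best of its region away from promoters. The RefSeq promoter window of Nfe2l2 (GRCm38.p6, chr2:75704614-75704913, from 250 bases before to 50 after the start, printed on the gene's strand) is shown because it holds an antioxidant response element match (ARE, TGACNNNGC) beside 4 KLF matches.
Nfe2l2 RefSeq promoter window: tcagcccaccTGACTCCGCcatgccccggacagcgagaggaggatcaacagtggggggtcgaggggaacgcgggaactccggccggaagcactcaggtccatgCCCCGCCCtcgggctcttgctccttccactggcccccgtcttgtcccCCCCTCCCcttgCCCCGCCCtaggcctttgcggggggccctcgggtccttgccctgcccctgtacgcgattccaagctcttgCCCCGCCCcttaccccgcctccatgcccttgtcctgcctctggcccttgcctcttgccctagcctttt
The ARE match is bases 11 to 19 of the window, TGACTCCGC, which lies outside the top promoter peak of either list and inside the hotspots of both. An ARE match was present in 12.4% of 32851 RefSeq promoter windows and a KLF match in 49.5%.

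Nfe2l3 (chr6:51432670-51458768, forward strand) encodes NRF3, another factor of the endoplasmic reticulum. It had the weakest promoter of the 10 genes, with 1 peak in each list, which scored 106 in replicate 1 and 20 in replicate 2. Of genes with a promoter peak, 15.0% scored lower in replicate 1 and 2.9% in replicate 2. Its hotspot was 337 bp wide in replicate 1 and 161 bp wide in replicate 2, narrower than at the other 9 genes in both lists. No replicate 2 peak lay inside the gene past the promoter window, while replicate 1 had 16 there. The highest peaks away from promoters lay 27879, 37079 and 48439 bp upstream, and scored 139, 140 and 136 in replicate 1 and 57, 51 and 56 in replicate 2.

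Bach1 (chr16:87698945-87733346, forward strand) encodes the heme-regulated repressor. The start itself was not its strongest site. A peak centred 834 bp upstream scored 149 in replicate 1 and 61 in replicate 2, and the peaks nearest the start scored 125 and 58. Further sites stood 1114 bp upstream (140 and 57) and, in introns, 1086 bp (147 and 77), 7346 bp (138 and 62) and 14266 bp (143 and 63) inside the gene. In the replicate 2 list 3 peaks of the region thus scored above the best promoter peak, and in replicate 1 none did. Of replicate 2 peaks away from promoters, 95.4% scored below the site 1086 bp inside the gene. Among these sites the one 14266 bp inside the gene held an NF-E2 match. The NF-E2 motif was GCTGANTCA, and every match to it contains the shorter AP-1 motif TGANTCA. The upstream promoter peak (chr16:87698036-87698185) and the intronic peak (chr16:87713136-87713285) are shown for their GATA and NF-E2 matches.
Bach1 upstream promoter peak: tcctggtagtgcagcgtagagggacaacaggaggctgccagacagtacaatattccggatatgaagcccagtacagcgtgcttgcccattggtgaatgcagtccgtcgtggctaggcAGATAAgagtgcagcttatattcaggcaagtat
Bach1 intron peak with NF-E2 match: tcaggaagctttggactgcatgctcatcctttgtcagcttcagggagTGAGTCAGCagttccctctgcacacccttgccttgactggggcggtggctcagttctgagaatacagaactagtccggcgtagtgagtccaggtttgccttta

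Bach2 (chr4:32238804-32586108, forward strand) encodes a repressor best known from B and T cells and is the longest of the 10 genes, at 347 kb. Its promoter scored 117 in replicate 1 and 38 in replicate 2, lower than at most open promoters, with 19.3% and 15.6% of them scoring less. The start at position 32417435, far inside the gene, had no peak within 250 bp in either list, although all 32-base words around it occur once in the genome. The strongest site of the gene was a peak in its last but one coding exon, at chr4:32575296-32575445, which scored 141 in replicate 1 and 79 in replicate 2. Of peaks away from promoters, 96.8% and 96.0% scored lower. An intronic peak 44064 bp before the inner start scored 140 and 65. The only replicate 2 peak of the gene with an NF-E2 match, at chr4:32239876-32240025, lay 1001 bp from the start. It scored 22 in replicate 2, below the list median of 32, and 116 in replicate 1, above the list median of 73.
Bach2 intron peak with NF-E2 match: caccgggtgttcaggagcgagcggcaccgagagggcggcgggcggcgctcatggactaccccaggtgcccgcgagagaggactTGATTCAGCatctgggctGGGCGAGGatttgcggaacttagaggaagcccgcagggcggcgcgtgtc

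Mafk (chr5:139791513-139802653, forward strand) encodes MafK, which has no activation domain of its own and was found as the partner of p45 in NF-E2. Its promoter scored 135 in replicate 1 and 63 in replicate 2, at the median of open promoters in replicate 2. An intronic peak, 2378 bp inside the gene in replicate 1 and 2438 bp in replicate 2, scored slightly higher, at 138 and 65. The strongest site of the whole region lay past the end of the gene, 1698 bp downstream and inside the neighbouring gene Tmem184a, at chr5:139804276-139804425 in both lists. It scored 150 in replicate 1 and 96 in replicate 2, above 99.9% and 99.0% of peaks away from promoters. Next to it stood peaks of 133 and 125 in replicate 1 and of 52 and 32 in replicate 2. Tmem184a had no promoter peak in either list. The start of Mafk at position 139797514 likewise had no peak within 250 bp. The peak past the gene end held 3 GATA matches, of which 2 share a base, and the promoter peak (chr5:139791416-139791565) held 1 ARE match and 3 KLF matches, of which 2 overlap.
Mafk peak past the gene end: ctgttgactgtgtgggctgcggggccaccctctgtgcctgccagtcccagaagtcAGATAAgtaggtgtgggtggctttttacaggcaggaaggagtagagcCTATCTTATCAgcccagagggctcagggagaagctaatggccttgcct
Mafk promoter peak: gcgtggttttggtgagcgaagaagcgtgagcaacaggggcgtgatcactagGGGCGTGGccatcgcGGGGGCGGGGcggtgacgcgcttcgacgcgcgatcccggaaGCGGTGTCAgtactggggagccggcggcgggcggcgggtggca

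Mafg (chr11:120625117-120633600, reverse strand) encodes MafG, a partner of NRF2. The outermost start scored 138 in replicate 1 and 63 in replicate 2. In replicate 1 a peak 929 bp inside the gene reached the same 138, and the corresponding replicate 2 peak scored 57. The 3 inner starts had peaks of 102 to 113 in replicate 1 and none within 250 bp in replicate 2. A replicate 2 promoter peak centred 649 bp inside the gene (chr11:120632876-120633025, score 41) held a site that matches the NF-E2 and the ARE motif at once. No replicate 1 peak overlapped it. The best site away from promoters lay 36406 bp past the gene end (chr11:120588636-120588785), scored 142 in replicate 1 and 61 in replicate 2, and held an NF-E2 and a GATA match. The RefSeq promoter window of Mafg (GRCm38.p6, chr11:120633498-120633797, on the gene's strand) held another ARE match.
Mafg promoter peak with NF-E2 match: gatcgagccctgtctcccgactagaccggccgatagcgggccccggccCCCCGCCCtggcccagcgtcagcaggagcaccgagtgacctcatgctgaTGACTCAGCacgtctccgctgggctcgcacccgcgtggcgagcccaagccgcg
Mafg downstream peak with NF-E2 match: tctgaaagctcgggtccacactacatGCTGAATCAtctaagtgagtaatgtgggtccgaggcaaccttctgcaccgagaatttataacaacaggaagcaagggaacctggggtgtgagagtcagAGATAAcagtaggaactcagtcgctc
Mafg RefSeq promoter window: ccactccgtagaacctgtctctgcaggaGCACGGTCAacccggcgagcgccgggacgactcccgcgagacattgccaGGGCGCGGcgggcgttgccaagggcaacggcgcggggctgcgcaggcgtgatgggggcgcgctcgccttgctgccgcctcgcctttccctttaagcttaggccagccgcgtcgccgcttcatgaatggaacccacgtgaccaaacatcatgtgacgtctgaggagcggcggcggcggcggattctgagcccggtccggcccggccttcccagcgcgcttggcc

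Maff (chr15:79346621-79359076, forward strand) encodes MafF, the third small MAF protein, known as a gene that stress signals induce. The middle of its 3 basic starts, at position 79347520, had the highest score, 136 in replicate 1 and 46 in replicate 2. The outermost start, at position 79346621, had only a weak replicate 1 peak of 59 within 250 bp and none in replicate 2. No replicate 2 peak lay inside the gene past its promoter windows, against 5 in replicate 1. The strongest peak of its 50 kb flanks, at 147 and 101, belonged to the promoter of the neighbour Pla2g6, and the best sites away from promoters scored 47 and 43 in replicate 2.

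Keap1 (chr9:21229730-21239361, reverse strand) encodes the inhibitor of NRF2. Its 5 starts carried 4 promoter peaks in replicate 1, with scores from 119 to 136, and 5 in replicate 2, with scores from 26 to 37. Only 14.6% of open promoters scored lower in replicate 2, and 41.0% in replicate 1. A stronger peak, 2170 bp upstream in replicate 1 and 2190 bp in replicate 2, scored 142 and 73. Within 2500 bp of a start these became the promoter scores of Keap1. The medians of 139 and 63 over open promoters apply to 1000 bp, and none was computed for 2500 bp. The strongest site near the gene that was not a promoter lay 9019 bp past its end, where replicate 2 had neighbouring peaks of 100, 79, 74 and 62. Of replicate 2 peaks away from promoters, 99.4% scored below the highest of them. Replicate 1 scored 147 there. Keap1 also had the densest region of the 10 genes, with 113 peaks in replicate 1 and 28 in replicate 2, and 99.8% and 99.3% of all genes had fewer peaks per 100 kb. The promoters of its neighbours Kri1 (150 and 116) and Atg4d (149 and 106) were the strongest there.

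RefSeq promoter windows were matched for 9 of the 10 genes, all but Nfe2, and these 9 had 15 windows. The number of CpG dinucleotides per 300-base window ranged from 39 at Mafg and 31 each at Bach1 and Mafk to 7 at Nfe2l3 and at the inner start of Bach2 and 5 at the outermost start of Maff. The median was 7 over all windows, and 20 and 21 over windows with a peak centre in replicate 1 and in replicate 2. A peak centre fell in 10 of the 15 windows in replicate 1 and in 9 in replicate 2, against 33.6% and 28.4% of all windows. The 5 windows with none in either list were those at the inner start of Bach2 and the outermost start of Maff, another pair at Nfe2l1 (15 and 11 CpG dinucleotides) and the one at Keap1 (13). The Nfe2l3 window, with 7, had its peak of 106 and 20. ARE matches occurred in 4 of the 15 windows, at Nfe2l2, Mafk, Mafg and the outermost start of Maff, against 12.4% of all windows. Some windows of the same gene overlap, and no test was run. Between 95% and 100% of 32-base words within 1000 bp of each basic start occur once in the genome.

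Together the genes and their 50 kb flanks held 606 peaks in replicate 1 and 161 in replicate 2. In replicate 1, 39 lay at the genes' own promoters, 143 inside the genes, 71 at promoters of other genes, 152 inside other genes and 201 between genes. The replicate 2 counts were 25, 33, 32, 16 and 55 in the same order. Per 100 kb the median over the 10 regions was 41.5 peaks in replicate 1 and 11.1 in replicate 2, against 20.6 and 6.78 over all protein-coding genes. The density was not raised at every gene. Bach2 had 93 and 27 peaks over its long region and a density that 50.5% and 44.9% of genes did not reach. For Bach1 these shares were 56.3% and 59.9%. In replicate 2 Nfe2 (59.8%) and Maff (58.6%) were also near the middle of all genes. In replicate 2 the highest peak of the region was at the gene's own promoter for Nfe2l1 and Nfe2l2, at another gene's promoter for 6 genes, and away from promoters for Bach1 and Mafk.

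**Figure D3:**
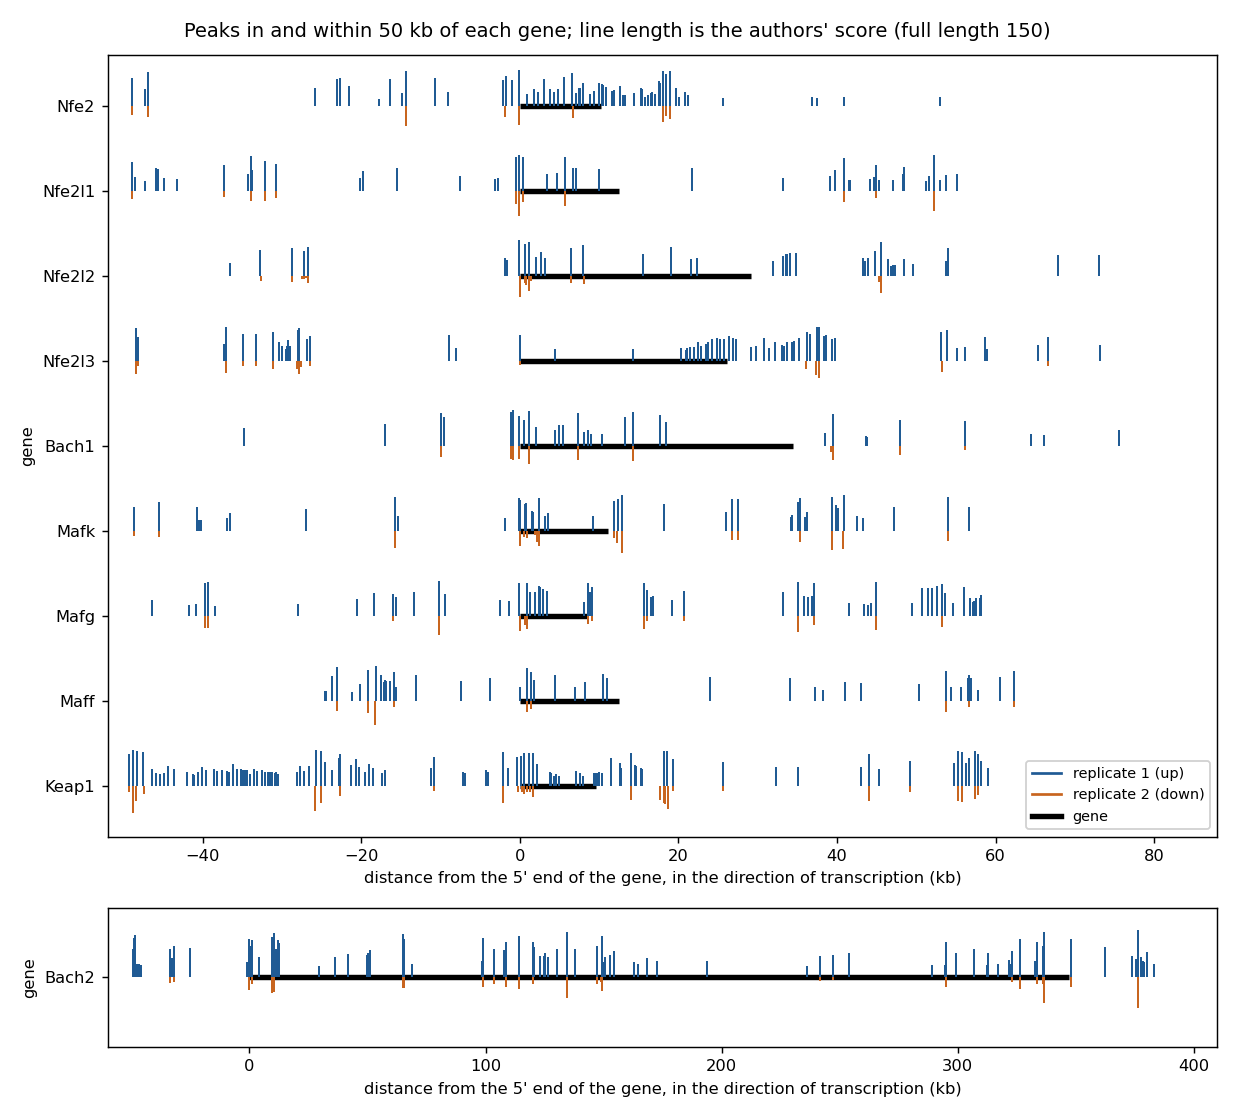
Peaks in and within 50 kb of each gene by distance in kb from the 5′ end of the gene in the direction of transcription, with replicate 1 up and replicate 2 down; line length is the authors' score (full length 150) and black bars are the genes, with Bach2 on its own axis. Runs of replicate 1 peaks of low and middle score without replicate 2 partners stand beside Keap1, Nfe2 and Nfe2l3, while Bach1 has few.

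**Figure D4:**
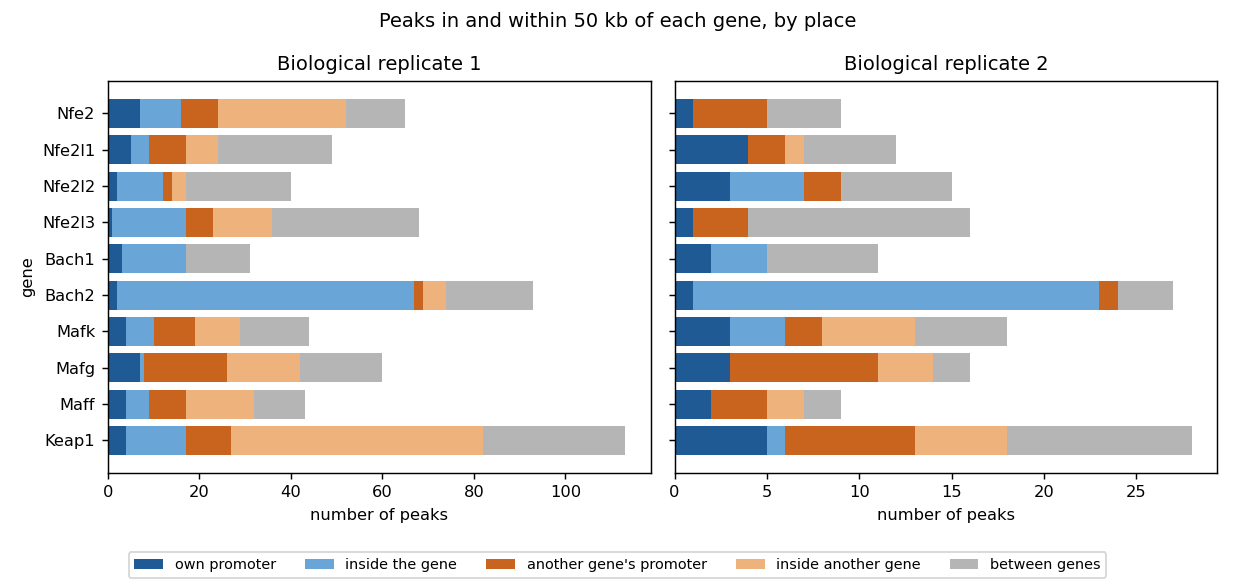
Number of peaks in and within 50 kb of each gene, by place, in replicate 1 (left) and replicate 2 (right); the axes differ in scale. Keap1 has the most peaks in both lists (113 and 28), and most Bach2 peaks lie inside the gene.

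In these regions 149 of 161 replicate 2 peaks touched a replicate 1 peak by at least 1 bp, or 92.5% (Wilson 95% interval 87.4 to 95.7%, which covers counting error over peaks only). The share over the whole replicate 2 list was 94.7%. All 161 were centred within 500 bp of the centre of a replicate 1 peak, but no share over the whole list is given for that rule. In the other list 149 of 606 peaks, or 24.6% (21.3 to 28.2%), touched a replicate 2 peak, and 30.2% did so over the whole replicate 1 list. At equal list length the share in these regions was 70.3% of 195 peaks. No share over the whole list was computed at that length, so 70.3% has no like value to stand beside. With the full lists, the distance between the share here and that over all replicate 1 peaks was widest at middle scores. Of replicate 1 peaks scoring 51 to 100, 12 of 331 or 3.63% (2.09 to 6.23%) were overlapped, against 15.8% of all peaks in that range, and of those scoring 101 to 150, 137 of 187 or 73.3% (66.5 to 79.1%), against 76.5%. Peaks of middle score made up 54.6% of the replicate 1 peaks here and 44.2% of the whole list, and 100 of the 331 lay inside other genes. At Keap1 there were 73, of which 14 lay in Atg4d alone, 10 in Kri1 alone and 11 where these genes overlap, and 1 of the 73 was overlapped. Nfe2l3 had 42, of which 11 lay in Hnrnpa2b1, and 1 was overlapped. At Nfe2 there were 30, of which 8 lay in Hnrnpa1, and none was overlapped. Bach2 differed from these and was close to the 15.8% over all peaks in that range, with 8 of its 50 overlapped. It supplied 8 of the 12.

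Nfe2 stood apart in the number of peaks per list when the full lists were used. Its region held 65 peaks in replicate 1 and 9 in replicate 2, a ratio of 7.22. Of 15574 protein-coding genes with at least 5 replicate 2 peaks in the same kind of window, 99.2% had a lower ratio, and the median was 2.89. Maff, on the same chromosome, had a ratio of 4.78, Mafk had the lowest at 2.44, and the whole of chromosome 15 had 2.95. With both lists limited to their 89046 highest scores, the Nfe2 region held 18 replicate 1 peaks and 9 replicate 2 peaks. In the same order Mafg then held 26 and 16 and Maff 15 and 9, while Nfe2l2 held 14 and 15 and Bach2 22 and 27. No rank among all genes is given at that length.

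Shares of peaks with NF-E2 and ARE matches, the motifs that these factors bind, were close to those over each whole list. An NF-E2 match was present in 12 of 606 replicate 1 peaks, or 1.98% (Wilson 95% interval 1.14 to 3.43%), against 1.88% of all replicate 1 peaks, and in 4 of 161 replicate 2 peaks, or 2.48% (0.97 to 6.21%), against 2.13%. ARE matches were present in 6.77% (5.03 to 9.05%) against 6.86% in replicate 1 and in 8.07% (4.78 to 13.3%) against 7.65% in replicate 2. The 4 replicate 2 peaks with an NF-E2 match, all printed above, lay in Bach1 and Bach2 introns, in the Mafg promoter region and past the end of Mafg. The other list had 12 such peaks, of which 3 overlapped replicate 2 peaks. Of the remaining 9, those in genes of the set lay 566 bp inside Bach1 (score 106) and at an inner start of Mafg (102), and the others, with scores of 35 to 109, lay in the flanks of Nfe2, Nfe2l2, Bach2, Maff and Keap1. GATA matches were present in 25.9% (22.6 to 29.5%) against 30.6% of all peaks in replicate 1, and in 26.7% (20.5 to 34.0%) against 33.4% in replicate 2. KLF matches were present in 19.6% (16.7 to 23.0%) against 18.1% in replicate 1, and in 32.9% (26.1 to 40.5%) against 24.1% in replicate 2, where 22 of the 104 peaks away from promoters held one. These shares are descriptions with no test, since peaks of a region are not independent.

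The NF-E2 family genes shared a feature of position that the choice of genes did not use. Each of the 4 lay beside genes of at least 1 of 3 other families, the HP1 chromatin proteins (Cbx), the hnRNP A RNA-binding proteins (Hnrnpa) and the COPI coat subunit zeta (Copz). Cbx and Hnrnpa genes each stood beside 3 of the 4, and Copz genes beside 2. A start of Hnrnpa1 lay 7.72 kb and one of Cbx5 8.4 kb from Nfe2 on one side, with Copz1 14.5 kb away on the other. Nfe2l1 had Copz2 at 19.9 kb and Cbx1 at 28.2 kb, Nfe2l2 had Hnrnpa3 at 16.2 kb, and Nfe2l3 had Hnrnpa2b1 at 11.0 kb and Cbx3 at 11.6 kb. The shared promoter of Cbx3 and Hnrnpa2b1 scored 143 in replicate 1 and 75 in replicate 2, that of Cbx5 and Hnrnpa1 146 and 71, Hnrnpa3 143 and 72, and Cbx1 137 and 50. Copz1 scored 147 and 85, whereas Copz2 scored 83 in replicate 1 and had no replicate 2 promoter peak. These promoters outscored the best basic promoter of the adjacent NF-E2 family gene at Nfe2 and Nfe2l3 in both lists, and not at Nfe2l1 or Nfe2l2. With the full-annotation start of Nfe2 (150 and 83) that order turned against Cbx5 and Hnrnpa1 in both lists and against Copz1 in replicate 1. Of 31 protein-coding neighbours with a start within 50 kb of any of the 10 genes, 26 had a promoter peak in replicate 1 and 23 in replicate 2. The shares over all protein-coding genes were 58.3% and 49.4%, and the difference was not tested.

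Genes of the wider pathway were described by the same promoter windows, in lists chosen by textbook role, and their counts stand beside the 58.3% and 49.4% of all genes with a promoter peak. Of 17 genes for the turnover and processing of these factors, all had a promoter peak in both lists. The highest replicate 2 scores belonged to Btrc (148 in replicate 1 and 121 in replicate 2), a ubiquitin ligase adaptor, Gsk3b (150 and 115), the kinase that marks NRF2 for it, and Fbxw7 (148 and 108), an adaptor that acts on NRF1. Of 22 antioxidant response genes, classical targets of NRF2, 21 had a promoter peak in replicate 1 and 19 in replicate 2. Nqo1, a quinone reductase, scored 150 and 101, the thioredoxin gene Txn1 145 and 97, and Ftl1, which encodes ferritin light chain, 147 and 94. Gpx2, a glutathione peroxidase of the gut, had no promoter peak in either list. Among genes with a promoter peak, the median score of turnover genes was 144 in replicate 1 and 75 in replicate 2. That of antioxidant genes was 142 and 72, against 139 and 63 over all genes with a promoter peak.

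Of 11 genes known as NF-E2 targets in red cells and platelets, 9 had a promoter peak in replicate 1 and 5 in replicate 2. The median score of those with a peak was 122 and 40, lower than the 139 and 63 over all genes with a promoter peak. The thromboxane synthase gene Tbxas1 scored 133 and 52, and the adult beta-globin gene Hbb-bt 128 and 40. Hba-a2, an alpha-globin gene, and Casp12, a caspase gene, had none in either list. The alpha-globin genes are near-identical copies of each other, and so are the adult beta-globin genes. Reads may be split or lost between such copies, so their scores are uncertain. How unique their sequences are was not measured here. Among the large MAF factors, which carry an activation domain, Mafa scored 147 and 76 and Nrl 87 in replicate 1 with no replicate 2 peak, while Maf had no promoter peak in either list.

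**Figure D5:**
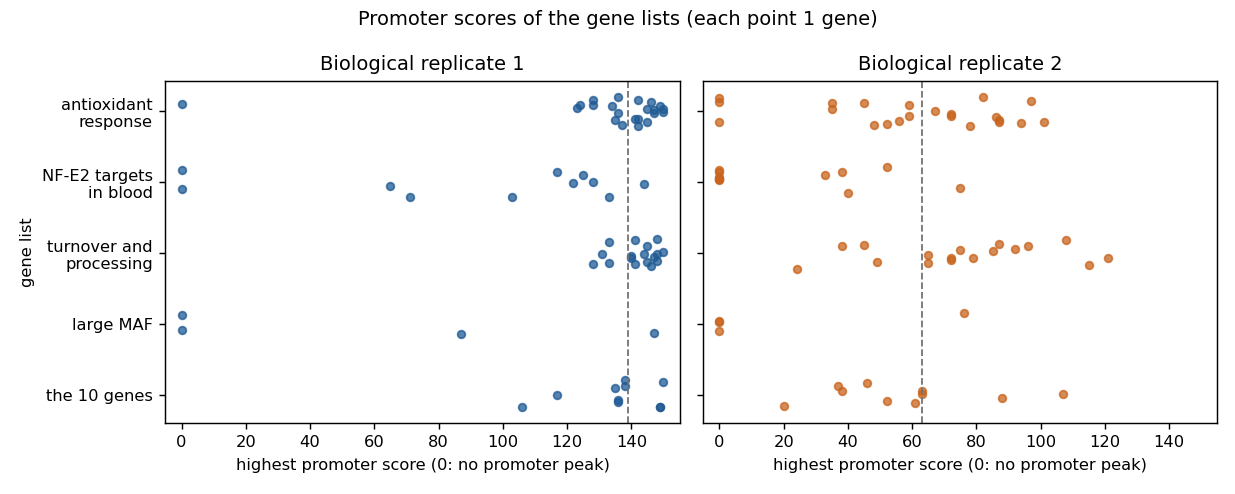
Highest promoter score of each gene (1 point each, 0 where there is no promoter peak) in the pathway lists and in the 10 genes, in replicate 1 (left) and replicate 2 (right); the dashed line is the median over all genes with a promoter peak (139 and 63). Turnover genes have no point at 0, and the NF-E2 targets in blood have 2 at 0 in replicate 1 and more in replicate 2.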

How the data were processed

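DNase-seq of MEL cells gave 1 peak list and 1 hotspot list for each of 2 biological replicates. Per the deposited notes, the replicate 1 lists were called on an alignment merged from its 2 libraries and the replicate 2 lists on 1 library. The build is mm10, per the labels, and the sources used here name no aligner, caller or read number. The score of each peak is the authors' own value, in the signal column of the deposited format. In the deposited hotspot lists, column 9 is read by format convention as a −log10 q-value, held at 100, and hotspots served here as positions.

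Exact repeats were dropped (67 lines in replicate 1 and 7 in replicate 2). Positions were joined to GENCODE M21 basic and GRCm38. A promoter peak was centred within 1000 bp of a protein-coding start, regions reached 50 kb past the gene, and lists overlapped at 1 bp or more. Distances run from peak centres. Motifs were searched in the 150 bp around each centre. Promoter windows came from RefSeq (GRCm38.p6). Percentiles are shares of genes or peaks that scored lower. Work was done in Python 3.11.15 (SciPy 1.17.1, pandas 2.3.3, NumPy 2.4.6, matplotlib 3.10.9), and the code was tested on simulated data.

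All 10 genes were named. Of each pathway list, the 3 highest replicate 2 scores and the genes without a promoter peak in both lists were named, except for items not reported here, and neighbours were named where a described peak lay at or in them. The genes, lists and motifs were chosen with earlier results of these data known. Alternatives were other promoter widths, starts, flanks, overlap rules, motif windows and list lengths, and hotspots in place of peaks.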

Additional observations from a re-analysis of the deposited data

How the results depend on the processing

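All 10 genes kept a promoter peak in both lists under the alternatives tried, except that 9 kept one in replicate 2 with the higher-scoring 50% of peaks (not Nfe2l3) and with the outermost start alone (not Nfe2). No paired analysis was possible because each biological replicate had 1 list and there was 1 condition. The median promoter score of the 10 genes, 137 in replicate 1 and 56.5 in replicate 2, became 136 and 55 within 500 bp, 138 and 64 within 2500 bp, and 136 and 53.5 with the outermost start alone. With the starts of the full annotation, added after seeing the data, replicate 2 became 62. Peaks in the regions numbered 287 and 82 with 10 kb flanks, 952 and 277 with 100 kb flanks, and 195 in replicate 1 at equal list length. The overlapped share of replicate 1 peaks became 30.4% for centres within 500 bp and 70.3% at equal list length. The replicate 2 share became 87% for a 50% overlap, 100% within 500 bp and 85.7% at equal length. No share over the whole lists stands beside these values. In 300 bp windows the replicate 1 shares became 12.0% for AP-1, 11.9% for ARE, 41.4% for GATA, 31.8% for KLF, 7.92% for RUNX and 5.94% for STAT. The replicate 2 shares became 16.1% for ARE, 37.3% for GATA and 44.7% for KLF. In the higher-scoring 50% of peaks, KLF reached 26.2% in replicate 1 and RUNX 0.971% in replicate 2. No share over all peaks is given at either setting. In the main 150 bp windows, AP-1 matches were present in 8.42% of replicate 1 peaks here, against 8.22% of all replicate 1 peaks. RUNX stood at 5.28% against 6.32% and STAT at 2.97% against 4.52%. In replicate 2 RUNX stood at 3.11% against 6.5%. At equal length 1 large MAF gene kept a replicate 1 promoter peak. Apart from fewer or more peaks and bases entering, the cause was not tested. Of the values for single genes, 29 changed and 87 did not. Depth is unknown, so a missing peak was not detected and may not be absent, and the score tops out at 150.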
